A study of Gallus gallus with 12 samples.

Results

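The Z chromosome of the chicken is the sex chromosome that males carry as a pair and females carry singly beside a W. Avian Z genes are only partly dosage compensated, so that copy number and local chromatin both shape their output, and the best known methylated locus of Z is the male hypermethylated region. Cytosine methylation in birds, as in mammals, lies mainly at CpG dinucleotides, and an antibody against it recovers fragments where many methylated CpGs lie close together. The peaks described here are those of the first 73 Mb of Z on the galGal4 assembly, with end below position 73000000, apart from a block near 27 Mb. The 320 peaks of that block, which began at 26984718 and ended at 27303151 over the 6 lists, were set aside, as were 5 peaks that span the 73 Mb limit. This left 10935 peaks of the 356324 in all lists, on 72.7 Mb of sequence, and this part of Z is called proximal Z below.

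Liver DNA of chickens recorded as resistant was compared with liver DNA of chickens recorded as susceptible, the agent being the avian retrovirus ALV-J (avian leukosis virus of subgroup J). Each group had 3 immunoprecipitated libraries, and each library had its own peak list. The resistant libraries carried the sample numbers 3, 4 and 26, and the susceptible libraries 8, 9 and 14, and the lists are called by group and number. The labels name no breed, age, sex or infection status, and do not state that each number is a separate bird, so p-values measure the spread between these samples. The lists name no genes, so that the liver label could not be set against marker genes, and regions are given by position.

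The 6 lists held between 55599 and 64559 peaks. Depth is unknown, because a peak list gives no read numbers, and the absence of a peak says only that none passed the authors' threshold. Resistant 26 and susceptible 14 stood apart from the other lists on the sex chromosomes before any result below. On W they had 50.2 and 53.3 kb of peaks per Mb, against 179 to 189 kb per Mb in resistant 3, resistant 4, susceptible 8 and susceptible 9. Outside Z and W their covered length was 40.1 and 41.5 Mb, inside the 38.1 to 42.4 Mb of the other 4 lists. These 2 lists had been singled out by their Z coverage in an earlier look at the same data. Every contrast between them and the other 4 is therefore a description, with no test.

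Proximal Z was about doubly covered in resistant 26 and susceptible 14. The number of peaks was 2588 in resistant 26 and 2568 in susceptible 14, against 1430 in resistant 3, 1506 in resistant 4, 1382 in susceptible 8 and 1461 in susceptible 9. Covered length was 1949 and 2048 kb in resistant 26 and susceptible 14, against 989, 1037, 965 and 1027 kb in resistant 3, resistant 4, susceptible 8 and susceptible 9. The 4 lower lists lay between 965 and 1037 kb although they came from both groups. Median peak width was 566 and 601 bp in the high pair and 517.5 to 532 bp in the other lists. With a score minimum of 160 in resistant 26 and susceptible 14 and the deposited minimum of 80 in the others, they had 1532 and 1549 peaks, near the 1382 to 1506 of the other lists, and 1443 and 1529 kb of covered length. The median score of a peak, which grades the caller's p-value for enrichment over input, ran from 197.48 to 223.53 and did not set the high pair apart.

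Resistant and susceptible libraries were compared first on these totals, the contrast the labels give. Resistant libraries had 1841 ± 648 peaks and susceptible libraries 1804 ± 663 (mean ± SD, n = 3 each; exact permutation test, two-sided, p = 0.7). Covered length was 1325 ± 541 kb in resistant and 1346 ± 608 kb in susceptible libraries (n = 3 each, exact p = 0.9). The mean width of a peak came to 711 ± 36.5 bp for resistant libraries and 733 ± 56.0 bp for susceptible ones (n = 3 each, exact p = 0.5). The ratio of coverage on proximal Z to that on chromosomes 1 to 5 of the same list was 0.730 ± 0.332 in resistant and 0.737 ± 0.325 in susceptible libraries (n = 3 each, exact p = 0.8). All 4 p-values were 0.9 after Benjamini-Hochberg adjustment, and the smallest p that 3 libraries against 3 can give is 0.1. No group difference exceeded the spread between libraries, which was set by resistant 26 and susceptible 14. Signs were not stable: the difference in peak number turned without resistant 26, susceptible 8 or susceptible 9, and that in covered length without resistant 3, resistant 4 or susceptible 14.

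Set against autosomes of comparable size, proximal Z was sparsely covered in 4 lists and slightly more densely covered in the other 2. Per Mb, peaks covered 26.8 kb of proximal Z in resistant 26 and 28.2 kb in susceptible 14, against 24.1 and 25.3 kb on chromosomes 1 to 5 of the same lists. In resistant 3, resistant 4, susceptible 8 and susceptible 9 proximal Z had 13.6, 14.3, 13.3 and 14.1 kb per Mb, against 26.5, 25.3, 23.4 and 26.5 kb per Mb on those chromosomes. The ratio of the pair of values was thus 1.11 in each of resistant 26 and susceptible 14, and 0.514, 0.565, 0.566 and 0.533 in the others. Over all 6 lists the mean difference was -6.81 ± 7.48 kb per Mb (SD, n = 6; exact two-sided sign-flip permutation test, p = 0.125), with 4 lists lower and 2 higher. Against the remainder of Z beyond 73 Mb, proximal Z was lower in 6 of 6 lists, by a mean difference of -208 ± 89.5 kb per Mb (18.4 ± 7.09 on proximal Z and 227 ± 96.6 beyond it, n = 6). The exact permutation p of 0.031 is the smallest that 6 lists can give, and it was 0.0625 after adjustment over both comparisons. The 73 Mb limit belongs to a rule chosen with earlier results of these data known. This p is therefore no independent support for the difference.

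Coverage was then followed along the chromosome in 73 windows of 1 Mb. It was uneven in the same way in every list. The 10 best covered windows of a list held between 48.5% and 49.9% of its covered length. The median window had 14.5 kb in resistant 26 and 16.5 kb in susceptible 14, and 7.58, 8.16, 7.17 and 7.84 kb in resistant 3, resistant 4, susceptible 8 and susceptible 9. Across the 73 windows Spearman's rho was 0.984 between resistant 26 and susceptible 14, 0.957 to 0.977 within the other 4 lists and 0.905 to 0.942 between the pair and the 4. These values describe windows that share libraries and base composition, and carry no p.

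**Figure D1:**
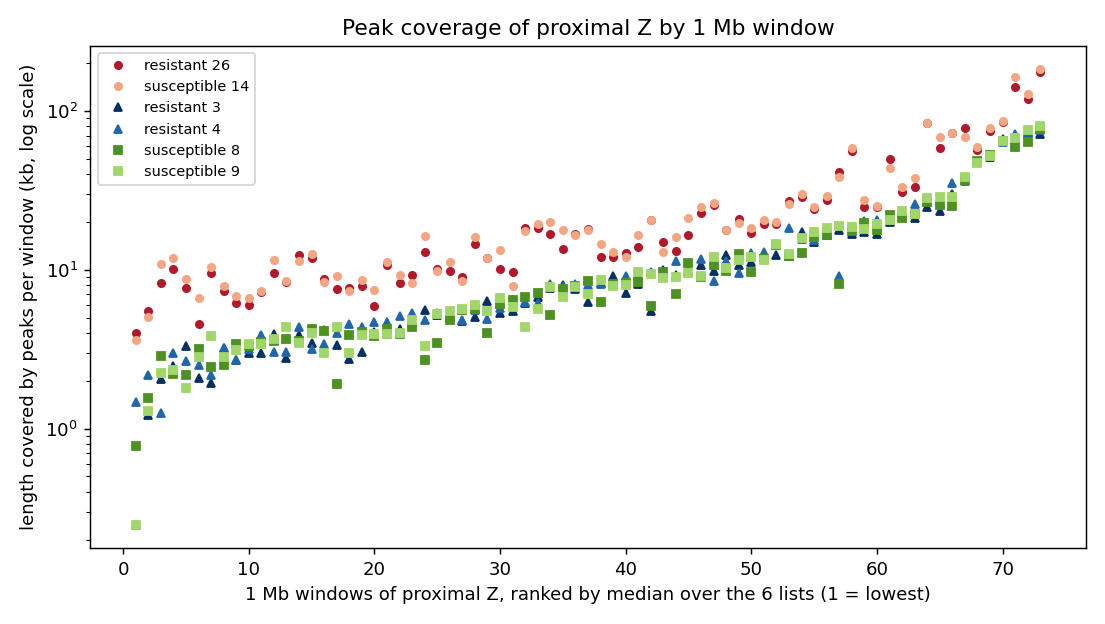
Length covered by peaks (kb, log scale) in each of the 73 windows of 1 Mb of proximal Z, ranked by their median over the 6 lists; each point is 1 list. Resistant 26 and susceptible 14 (circles) lie above the other 4 lists (triangles and squares) in all 73 windows.

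The first window, from the tip of the chromosome to 1000000, had the highest median. It was covered over 177 kb in resistant 26 and 185 kb in susceptible 14, against 71.5, 75.7, 76.7 and 80.6 kb in resistant 3, resistant 4, susceptible 8 and susceptible 9. Within it the outermost 200 kb alone had 89.0 and 94.9 kb in resistant 26 and susceptible 14, against 42.9, 48.6, 45.9 and 48.2 kb in the other lists in the same order. That end stretch was picked after its values were seen. The next highest medians were those of the windows 67000001 to 68000000 (74.8 kb), 8000001 to 9000000 (69.6 kb), 65000001 to 66000000 (65.8 kb) and 7000001 to 8000000 (52.6 kb). The lowest was 27000001 to 28000000 with 1.12 kb, a window that loses its first 310 kb to the excluded block. Next to it in rank were 20000001 to 21000000 (1.88 kb), 21000001 to 22000000 (2.55 kb), 54000001 to 55000000 (2.73 kb) and 45000001 to 46000000 (2.98 kb).

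Every window set the same 2 lists above the other 4, although the order within the pair changed. Resistant 26 was above susceptible 14 in 22 windows and below it in 51. In 73 of 73 windows both resistant 26 and susceptible 14 exceeded each of the other 4 lists, while over all chromosomes this held for 12.6% of windows and on the autosomes for 46 of 934. The reverse, all 4 lists above both, occurred in 0 windows of proximal Z and in 11.9% of windows over all chromosomes. Windows of the Z beyond 73 Mb were not counted apart. The lower of resistant 26 and susceptible 14 divided by the highest of the other 4 had a median of 1.79 and ran from 1.16 to 3.36, so that the excess was general in direction and unequal in size.

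Among the 71 windows with at least 5 kb in both of them, this ratio was highest at 54000001 to 55000000 (3.36). There the covered length was 10.1 and 11.8 kb in resistant 26 and susceptible 14 and at most 3.00 kb in another list. The windows 9000001 to 10000000 (2.99), 1000001 to 2000000 (2.97), 21000001 to 22000000 (2.90) and 68000001 to 69000000 (2.77) followed. In the second of these, near the tip, peaks covered 83.9 and 84.3 kb in resistant 26 and susceptible 14, against 24.9 to 28.2 kb in the other lists. The ratio was lowest at 69000001 to 70000000 (1.16), 25000001 to 26000000 (1.16), 30000001 to 31000000 (1.20), 49000001 to 50000000 (1.22) and 39000001 to 40000000 (1.24). The window at 25 Mb holds a pair of wide regions at the ceiling of the score in every list, and covered 56.7 and 59.4 kb in resistant 26 and susceptible 14, against 47.0 to 48.8 kb.

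No window separated resistant from susceptible libraries, in either direction (0 of 73 each), while over all chromosomes 2.16% of windows had every resistant library above every susceptible one and 1.47% the reverse. With resistant 26 and susceptible 14 in opposite groups and on top of every window, no window could have done so. Among the other 4 lists, 14 windows (19.2%) had both resistant above both susceptible libraries, against 18.0% of windows over all chromosomes. The reverse held for 16 windows (21.9%), against 55 of 1019 (5.40%) over all chromosomes, Z included. On proximal Z the directions were thus near equal in number. Outside Z and W, susceptible 8 had 38.1 Mb of covered length, against 42.3, 40.7 and 42.4 Mb in resistant 3, resistant 4 and susceptible 9. Whether this lowered the share of 5.40% was not tested, and no test was made of the difference from it.

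To compare positions between lists, overlapping or touching peaks were merged into 3238 regions. Of these, 751 (23.2%) had a peak in every list, against 33.5% of regions over all chromosomes. The base on proximal Z includes 1324 regions (40.9%) found in resistant 26, susceptible 14 or both alone, against 6.03% on the autosomes. Of regions held by all 4 other lists, 751 of 824 on proximal Z and 28475 of 33039 on the autosomes had a peak in every list. By that base the share was not lower on proximal Z. A further 733 regions had a peak in resistant 26, susceptible 14 and 1 to 3 of the other lists, and 988 in a single list. The single list was resistant 26 in 444 regions, susceptible 14 in 434 and one of the other 4 lists in 110. On the autosomes it was resistant 26 in 2280 regions and susceptible 14 in 2367. It was resistant 3 in 5694, resistant 4 in 4166, susceptible 8 in 2069 and susceptible 9 in 4849. The higher autosomal counts were those of the longer lists. Resistant 3, resistant 4 and susceptible 9 had 64559, 61753 and 62534 peaks in all, and the rest had 55599 to 56120. On proximal Z 209 regions (6.45%) had a peak in neither resistant 26 nor susceptible 14, against 25801 of 84237 (30.6%) on the autosomes.

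**Figure D2:**
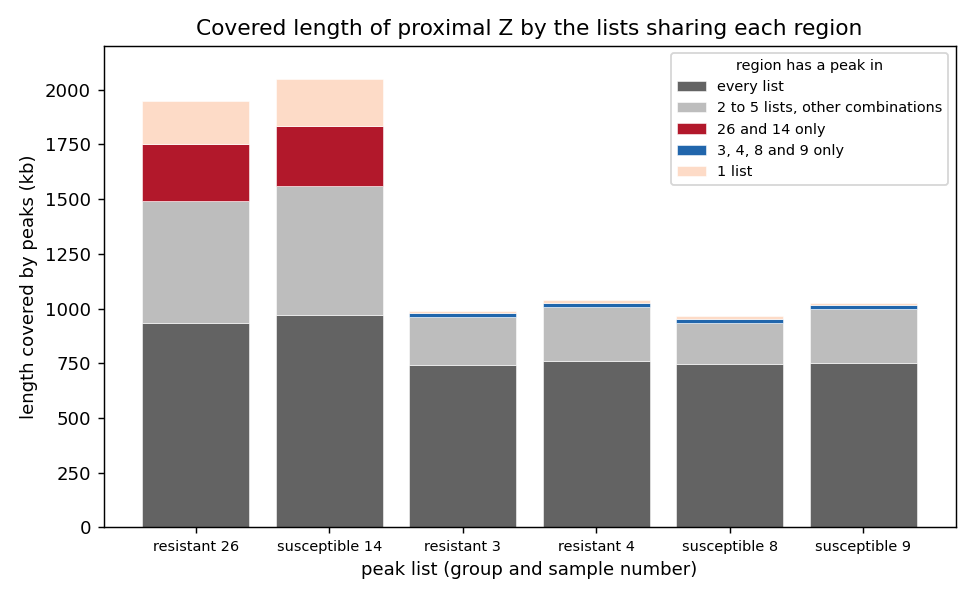
Length of proximal Z covered by peaks (kb) in each list, split by which lists have a peak in the same merged region; bars start at 0. Regions with a peak in every list contribute 934 and 971 kb in resistant 26 and susceptible 14 and 740 to 762 kb in the other lists.

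The surplus of covered length in resistant 26 and susceptible 14 came from several kinds of region. Regions present in every list gave 934 and 971 kb in resistant 26 and susceptible 14, against 740, 762, 745 and 751 kb in resistant 3, resistant 4, susceptible 8 and susceptible 9, since the same regions were covered over more of their length. Regions found in resistant 26 and susceptible 14 only gave 262 and 274 kb. Regions found in 1 list gave 195 kb in resistant 26 and 213 kb in susceptible 14, and 7.96 to 10.1 kb in the other lists. The remaining combinations of lists gave 558 and 590 kb, against 190 to 247 kb.

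Regions with a peak in every list had a median length of 860 bp. In 17 of them the score stood at or above 3100 in all 6 lists. The value 3100 itself recurs in 1333 to 1612 peaks of a list and was read as the ceiling of the caller's score, above which strength is not resolved. By the ranking rule, the 10 first of these 17 in order of position were Z:3160622 to 3161438, Z:7233446 to 7266988, Z:7267003 to 7275471, Z:13464078 to 13464822, Z:23620960 to 23621848, Z:25457628 to 25471395, Z:25521286 to 25549868, Z:26062983 to 26063839, Z:32081362 to 32085937 and Z:37530025 to 37531758. They ranged from compact regions under 1 kb to very wide ones.

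The widest region of proximal Z, at 7233446 to 7266988, measured 33543 bp and was covered over at least 32182 bp in every list. With its neighbour at 7267003 to 7275471 it formed a stretch of 42.0 kb that was nearly filled in every list. That left little room for a surplus of the high pair. From 7233446 to 7275471, peaks covered 41.9 and 41.7 kb in resistant 26 and susceptible 14, against 40.7, 40.4, 41.3 and 40.2 kb in resistant 3, resistant 4, susceptible 8 and susceptible 9. The regions at 25521286 to 25549868 (28583 bp) and 65951946 to 65972061 (20116 bp) were likewise nearly filled in every list. The region at 25457628 to 25471395 (13768 bp) was covered over 13765 and 13737 bp in resistant 26 and susceptible 14, against 12076 to 12883 bp in the other lists.

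Of the 10 widest regions, 4 lay in a row between 65144767 and 65180497. Over that row, peaks covered 96.5% in resistant 26 and 94.5% in susceptible 14, against 76.4, 75.6, 79.2 and 79.1% in resistant 3, resistant 4, susceptible 8 and susceptible 9. The coverage was made of 5 and 11 peaks in resistant 26 and susceptible 14 and of 16, 20, 16 and 13 in the others, so the higher coverage came in fewer and longer peaks. A larger contrast was found from 34100001 to 34200000. There the covered length was 35.8 and 35.2 kb in resistant 26 and susceptible 14, against 12.6, 20.9, 10.9 and 10.1 kb in the other lists in the same order. These stretches were chosen after their values were seen.

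The score was compared in regions that every list shares, where presence cannot differ. Of the 751, 104 held a score of 3100 or more and were left out. In the other 647 the median score was 627 in resistant 26 and 573 in susceptible 14, against 268, 335, 314 and 305 in resistant 3, resistant 4, susceptible 8 and susceptible 9. On chromosomes 1 to 5, in 10417 such regions, the corresponding medians were 281 and 269, against 312, 328, 299 and 311. Relative to the mean log2 score of the 6 lists, proximal Z regions had a median of 0.71 in resistant 26 and 0.55 in susceptible 14, against -0.47, -0.13, -0.24 and -0.29 in the others. The same quantity on chromosomes 1 to 5 was -0.06 and -0.13, against 0.06, 0.14, 0.02 and 0.07. The 2 lists that were lowest on the autosomes were thus highest on proximal Z.

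**Figure D3:**
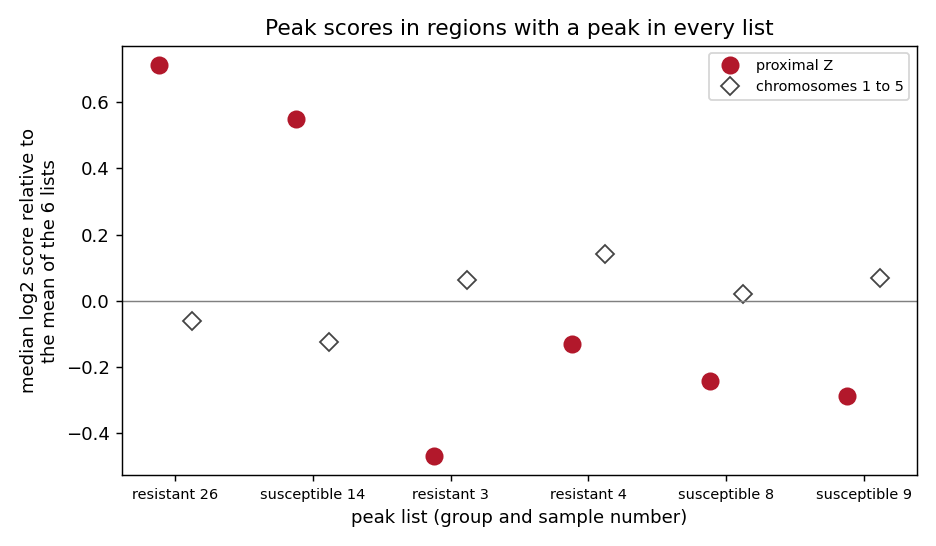
Median log2 peak score of each list relative to the mean of the 6 lists, in regions with a peak in every list and no score at the ceiling, on proximal Z (647 regions, filled circles) and chromosomes 1 to 5 (10417 regions, open diamonds). On proximal Z resistant 26 and susceptible 14 lie at 0.71 and 0.55 and the other lists below 0.

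Regions present in resistant 26 and susceptible 14 only numbered 446, or 13.8% of proximal Z regions, against 1.53% over all chromosomes and 431 of 84237 (0.512%) on the autosomes. The other 14 pairs of lists had 2 to 23 such regions each on proximal Z. Their density was 61.4 per 10 Mb, against 3.56 per 10 Mb on chromosomes 1 to 5. They occurred in 67 of the 73 windows, with 44 in the first, 39 at 8000001 to 9000000 and 27 at 1000001 to 2000000. The first 10 windows held 35.9% of them and 27.9% of all regions. The share of such regions on the Z beyond 73 Mb, where the same 2 lists were also higher, was not counted apart.

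Most of these 446 regions ranked in the lower part of their lists, though higher than the autosomal regions of the same kind. A score percentile, the rank of a peak's score within its own list, had a median of 31.7 in resistant 26 and 33.5 in susceptible 14, and the lower of the pair had a median of 21.9 and reached 50 in 45 regions (10.1%). Among the 431 autosomal regions that lower percentile had a median of 9.81 and reached 50 in 2 (0.464%). The median length was 602.5 bp on proximal Z and 549 bp on the autosomes. The nearest peak of another list lay at a median distance of 6026.5 bp on proximal Z, against 1639 bp on the autosomes. It was less than 1 kb away for 99 regions (22.2%) on proximal Z and 170 (39.4%) on the autosomes. The lists of samples 3, 4, 8 and 9 had 19.0 to 20.7 peaks per Mb on proximal Z, against 36.7 to 43.4 on chromosomes 1 to 5. Whether this lower density accounts for the greater distance was not tested. No test was made of the differences in percentile, length or distance. The strongest was Z:1273190 to 1275345 (2156 bp), with scores of 1512.55 in resistant 26 and 1323.89 in susceptible 14 and the nearest peak of another list 4725 bp away. It was the only 1 with both scores above the 90th percentile. The next, Z:65803221 to 65804301, had scores of 554.19 and 502.87. The other 8 named by the ranking were Z:25693832 to 25694574, Z:64043813 to 64044989, Z:34490759 to 34491315, Z:21658681 to 21660270, Z:72992348 to 72994034, Z:70131 to 71412, Z:8083773 to 8085096 and Z:38331857 to 38332459. Among these, Z:34490759 to 34491315 stood most alone, 56832 bp from any peak of another list, while Z:64043813 to 64044989 had one 76 bp away. With a score minimum of 160 in resistant 26 and susceptible 14, and the deposited minimum elsewhere, there were 78 such regions in place of 446. Without resistant 26 the count became 893 regions in susceptible 14 alone, and without susceptible 14 it became 917 in resistant 26 alone. Leaving out either list loosens the definition by construction. Shares over all chromosomes were not taken under these settings, so the changes are not particular to proximal Z as far as is known.

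The opposite kind, regions with a peak in resistant 3, resistant 4, susceptible 8 and susceptible 9 and in neither other list, numbered 46. They were 1.42% of proximal Z regions, against 1.39% over all chromosomes and 1.29% on the autosomes. The share is taken of all regions, which on proximal Z include 1324 found in resistant 26, susceptible 14 or both alone. Per length they were sparser, at 6.33 per 10 Mb of proximal Z against 10.4 on chromosomes 1 to 5 and 11.8 on all autosomes. The 4 lists, however, covered proximal Z at only 0.514 to 0.566 times their coverage on chromosomes 1 to 5. Of regions held by all 4 lists, 46 of 824 on proximal Z and 1088 of 33039 on the autosomes were of this kind. By that base they were not sparser on proximal Z. The scores of the 46 regions were high within their lists. The lowest of the 4 score percentiles had a median of 83.2, and it reached 50 in 33 of 46 regions (71.7%) and 90 in 15 (32.6%). Among the 1088 regions of this kind on the autosomes the median was 14.5, and 138 (12.7%) and 44 (4.04%) reached those values. No test was made of that difference. The median score of the 46 regions was 648, 839, 1048 and 664 in resistant 3, resistant 4, susceptible 8 and susceptible 9.

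**Figure D4:**
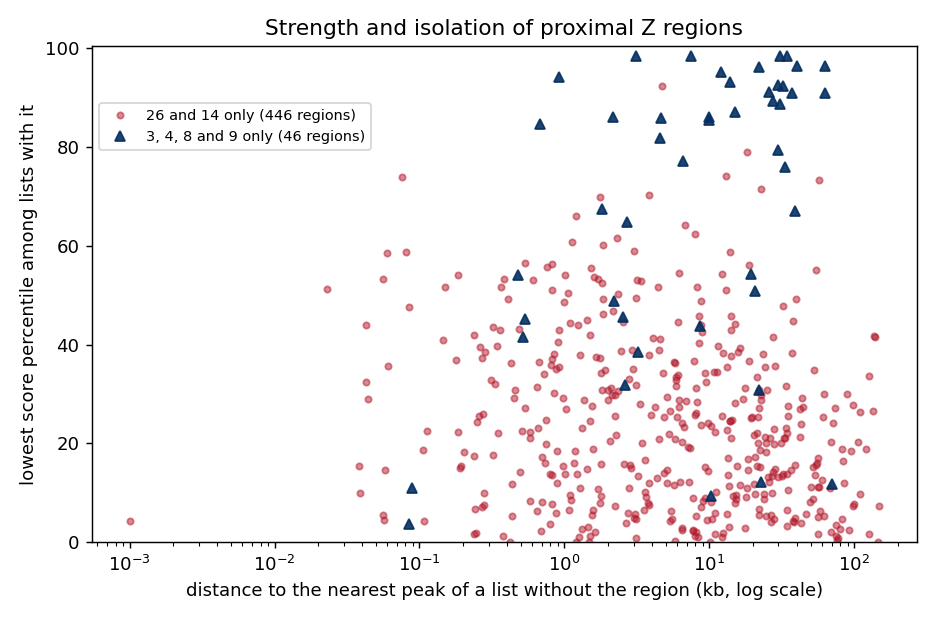
Lowest score percentile among the lists that hold a region against the distance (kb, log scale) to the nearest peak of a list that lacks it, for the 446 regions of samples 26 and 14 only and the 46 of samples 3, 4, 8 and 9 only; each point is 1 region. The first set has a median percentile of 21.9 and the second of 83.2.

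These 46 regions were short and scattered. They measured 308 to 922 bp, with a median of 480 bp. They were spread over 33 windows with at most 3 in a window, and 7 lay in the first 10. The nearest peak of resistant 26 or susceptible 14 was at a median of 11177.5 bp, and at least 10 kb away for 24 of them (52.2%). On the autosomes the median was 3364 bp, and 294 of 1088 were that far away. A peak of resistant 26 or susceptible 14 lay less than 1 kb away for 7 of the 46 (15.2%) and for 286 of the 1088 (26.3%). Proximal Z was about doubly covered in resistant 26 and susceptible 14, so the 46 regions ran against the order of the lists seen in every window. They did so only in which lists had a peak above the threshold. An absent peak does not show that methylation was lower there.

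In 4 of these regions the score stood at 3100 in all 4 lists: Z:59762593 to 59763104, Z:62270319 to 62270780, Z:64197457 to 64197974 and Z:69341054 to 69341383. In that order, the nearest peak of resistant 26 or susceptible 14 lay 34383, 7449, 30738 and 3125 bp away. Next came Z:40982334 to 40982937 (604 bp), with scores of 2361.41, 3095.91, 3100 and 3100 in resistant 3, resistant 4, susceptible 8 and susceptible 9 and 62877 bp to the nearest peak of the lists without it. The rest of the named 10 were Z:10455880 to 10456422, Z:64542676 to 64543146, Z:52109716 to 52110226, Z:57019890 to 57020221 and Z:52324693 to 52325175. Of the 10, 8 lay beyond 52 Mb, a limit chosen after the positions were seen, against 18 of all 46 (39.1%). All 4 lists that hold these regions also had high W coverage, the values of which are given above. Whether sequence shared with W has a part in them was not tested, since no galGal4 sequence was used.

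Few regions followed the ALV-J groups. Of the 3238 regions, 2 (0.0618%) had a peak in each resistant library and in no susceptible one, against 0.577% over all chromosomes. The reverse held for 0 regions, against 0.320%. Resistant 26 and susceptible 14, in opposite groups, both had a peak in 59.6% of proximal Z regions, against 43.4% on the autosomes. Such regions could follow neither group, so the low shares do not show how the groups compare. The 2 regions, Z:51086016 to 51086390 and Z:35979354 to 35979749, were weak. The first had scores of 89.14, 151.03 and 101.6 in resistant 3, resistant 4 and resistant 26, and a susceptible peak lay 974 bp away. The second had scores of 91.21, 107.94 and 87.46, with a susceptible peak 117 bp away. Leaving out both resistant 26 and susceptible 14 left 2053 regions. Of these, 53 (2.58%) were in both resistant and neither susceptible library, against 3.31% over all chromosomes, and 44 (2.14%) were the reverse, against 1.99%. Leaving out 1 library gave 18, 20 and 7 resistant-only regions without resistant 3, resistant 4 and resistant 26, and 2, 7 and 40 without susceptible 8, susceptible 9 and susceptible 14. The reverse count was 0, 1 and 31 without resistant 3, resistant 4 and resistant 26, and 15, 9 and 9 without susceptible 8, susceptible 9 and susceptible 14. Leaving out 1 library loosens both definitions by construction, and the shares over all chromosomes are not given for these counts. The highest, 40 and 31, were those without susceptible 14 and without resistant 26, which left only 1 of the high pair in the comparison.

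One stretch divided the lists across the groups. At 53000001 to 54000000 the covered length was 41.5 and 38.5 kb in resistant 26 and susceptible 14, 17.9 and 19.0 kb in resistant 3 and susceptible 9, and 9.13 and 8.10 kb in resistant 4 and susceptible 8. The 4 lower lists spanned a ratio of 2.34 there, against a median of 1.17 over the 31 windows in which at least 1 of them had 10 kb. Of the 52 bins of 100 kb in which at least 1 of the 4 had 5 kb, the widest spread was at 53000001 to 53100000, a ratio of 3.23 against a median of 1.30. There the covered length was 15.9 and 15.4 kb in resistant 26 and susceptible 14, 9.27 and 9.83 kb in resistant 3 and susceptible 9, and 3.27 and 3.04 kb in resistant 4 and susceptible 8. It was made of 14 and 16 peaks in the first pair, 11 and 10 in the second and 5 and 6 in the third. The stretch was found by its spread after the values were seen, and each ALV-J group had 1 of the 4 lists on either side.

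**Figure D5:**
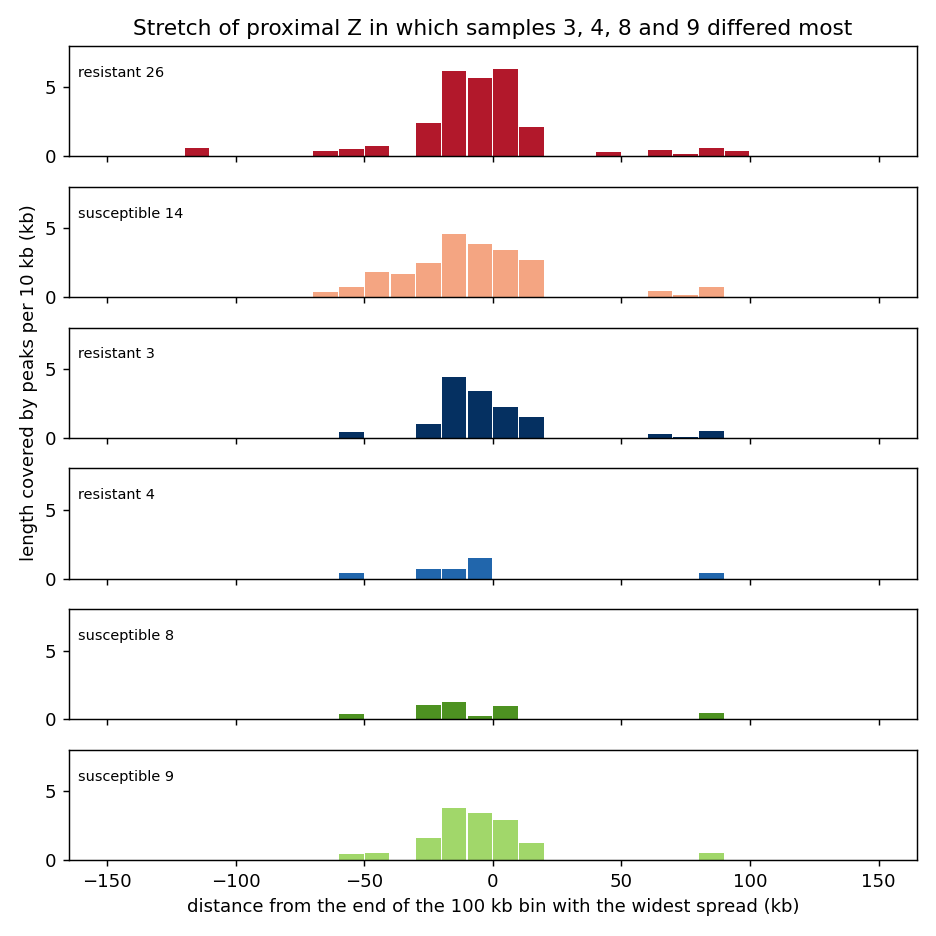
Length covered by peaks (kb) in bins of 10 kb within 150 kb either side of the end of the bin at 53000001 to 53100000, 1 panel per list. Resistant 3 and susceptible 9 reach 4.43 and 3.82 kb per bin, resistant 4 and susceptible 8 stay at or below 1.48 kb, and resistant 26 and susceptible 14 reach 6.34 and 4.59 kb.

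Long stretches held no peak. The longest without a peak in any list were 20253855 to 20652940 (399 kb), 19781095 to 20171391 (390 kb), 18418203 to 18742651 (324 kb), 34931612 to 35251400 (320 kb) and 11974956 to 12244827 (270 kb). The first 3 lay close together, between 18418203 and 20652940. In single lists, stretches of at least 100 kb added up to 26.6 and 27.9 Mb in resistant 26 and susceptible 14, against 46.6, 46.1, 46.6 and 46.5 Mb in resistant 3, resistant 4, susceptible 8 and susceptible 9. In no list was such a stretch shown to be unmethylated, and unsequenced gaps of the assembly were not marked.

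The overlap of covered sequence was also compared between pairs of lists. The Jaccard index of a pair of lists, their common covered length over their joint covered length, was 0.657 between resistant 26 and susceptible 14 on proximal Z, 0.614 to 0.651 among the other 4 lists and 0.417 to 0.448 between the pair and the 4. On chromosomes 1 to 5 the index was 0.594, 0.577 to 0.601 and 0.568 to 0.598 for the same sets of pairs. The ranges on those autosomes nearly coincided. The index is capped where lists differ in covered length. On proximal Z that length was 1949 and 2048 kb in the pair, against 965 to 1037 kb in the 4. The lower index between them therefore does not show whether positions differ beyond that difference in amount.

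At the limits of the rule, the last peak kept in a list ended between 72998425 and 72999856 and had a score of 108.06 to 893.32, and the first beyond 73 Mb began between 73000444 and 73001456 with 85.52 to 463.25. Beside the excluded block, the last peak kept ended at 26890042 and the first of the block began at 26984718. On the other side, the block's last peak ended at 27303151, and the first peak kept began at 27513007.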

How the data were processed

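Per the submitters' processing notes, reads were handled with cutadapt and Bowtie2 on galGal4, with no versions given. The authors deposited 1 peak list per library. The names of the lists and peaks record MACS, run per library against the input of the same number, so replicates were not pooled. The deposited score of a peak was read, from its values, as -10 log10 of the p-value that MACS assigns, and its minimum was 80. It rises with depth, which is unknown. The sources used here do not state how duplicate reads were handled. Positions are on galGal4, counted from 1.

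Peaks were selected, merged and summed in Python 3.11.15 with numpy 2.4.6. Coverage per Mb used 72.7 Mb for proximal Z, and for other chromosomes the highest peak end as their length. Group means were tested by exact permutation, and lists against comparators by exact sign flips. Region classes and windows got counts only, beside the same counts over all chromosomes. Regions were ranked within a class by the lowest score percentile of the lists holding them, ties by position, and the first 10 were named. Windows were named by the 5 highest and 5 lowest medians and ratios. The code was tested on simulated data, and the planted regions were recovered. Those regions stood well apart, so the test did not cover regions with a peak of another list close by. The members, the contrast of samples 26 and 14 with the others, and the rules were chosen with earlier results of these data known. Inputs have no list and were not used.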

Additional observations from a re-analysis of the deposited data

How the results depend on the processing

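Each result was recomputed with other thresholds, merging rules, window sizes or sets of lists, giving 143 values. Of these, 12 changed sign and 30 counts moved by over 1.5 times. The counts are of proximal Z only. Shares over all chromosomes under the same setting were taken only without samples 26 and 14, and are given above. The 73 windows with resistant 26 and susceptible 14 on top were 65 at the pooled median score of 193.59, 52 with a score minimum of 160 in those 2 lists, and 140 of 146 with windows of 500 kb. With 1 library left out the count of 73 cannot change by construction. Regions of resistant 26 and susceptible 14 only numbered 290 at the pooled median score, 78 with the minimum of 160, and 510 to 917 with 1 library left out, which loosens the definition by construction. Regions of samples 3, 4, 8 and 9 only numbered 39 to 65 under the other alternatives and 70 with the minimum of 160. Regions in every list fell to 404 at the pooled median score. Regions of resistant libraries only were 0 with equal list lengths, 1 at the pooled median score, 1 with peaks up to 500 bp apart joined, 0 with no other peak within 1000 bp, 53 without samples 26 and 14, and 2 to 40 with 1 library left out. Those of susceptible libraries only were 1 where peaks had to cover 50% of a region, 1 at the pooled median score, 44 without samples 26 and 14, and 0 to 31 with 1 library left out. For both kinds, leaving out libraries loosens the definition by construction. Windows with every resistant above every susceptible list numbered 14 without samples 26 and 14 and 0 to 14 with 1 library left out. The reverse numbered 1 at the pooled median score, 16 without samples 26 and 14, and 0 to 16 with 1 library left out.

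The resistant minus susceptible difference turned to -31.7 peaks with equal list lengths, and to 17.2 kb of covered length without samples 26 and 14. With 1 library left out it ran from -336 to 420 peaks, from -333 to 329 kb, from -42.7 to 10.6 bp for width and from -0.197 to 0.181 for the ratio to chromosomes 1 to 5. Among these, peaks turned without resistant 26 (-336), susceptible 8 (-173) and susceptible 9 (-134), covered length without resistant 3 (147), resistant 4 (123) and susceptible 14 (329), width without susceptible 14 (10.6), and the ratio without resistant 3 (0.101), resistant 4 (0.0764) and susceptible 14 (0.181). Each group held 1 of the high lists, resistant 26 or susceptible 14, so each omission changed the weight of a high list in its group mean. The cause of their higher coverage was not tested. With 1 library left out or without samples 26 and 14 no p could pass 0.05, as the smallest possible were 0.1 (3 against 2), 0.333 (2 against 2) and 0.0625 (5 lists). Differences from chromosomes 1 to 5 and from the Z beyond 73 Mb kept their sign under every alternative run for them. No paired analysis was possible because the replicate numbers follow the order of deposition and pair no libraries. Unknown depth and the score ceiling limit every absence and every comparison of strength.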
